A study of Mus musculus with 4 samples.

Results

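Gm32250, 4930587E11Rik, Gm15594, Gm20275, Nrg3os, 4933413L06Rik, 4930445B16Rik, Gm45904, 4930473D10Rik and 4930567K20Rik are long non-coding RNAs (lncRNAs) whose gene bodies lie on the opposite strand of a more abundantly counted gene. These 10 of the 32285 genes in the count matrices were chosen because their counts were higher in nuclei of risperidone-treated mice, so their contrast between the conditions is given as a description. Among the annotated genes, 3473 were lncRNAs that overlap a gene with more counts on the other strand. Wild-type C57BL/6J mice were injected i.p. each day with saline or with risperidone at 4 mg/kg, an antipsychotic that blocks dopamine and serotonin receptors, for 21 days from postnatal day (PND) 22. After a washout their cortex was taken at PND 90. Right hemispheres of 10 mice (5 male, 5 female) made up 1 pool of tissue per condition, and nuclei of each pool were run on 2 Chromium lanes for single-nucleus RNA sequencing (snRNA-seq). The lanes are technical repeats of a pool. With 1 pool per condition there is no test between conditions, and treatment cannot be told apart from anything else that differed between the 2 pools, library preparation included. Whether part of the UMIs given to these lncRNAs came from RNA of the opposite gene read on the wrong strand was not tested, and this holds for every antisense level below.

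Antisense lncRNAs are transcribed from the strand opposite to another gene, often from within its introns. Some are known to act on the gene they overlap, through its promoter, its splicing or its chromatin, and for many no function is known. Nuclear RNA is rich in unspliced transcripts, so reads from introns make up much of an snRNA-seq library. The counting assigned each unique molecule (UMI, unique molecular identifier) to a gene by strand, and intronic reads were included, so a UMI given to one of these lncRNAs was assigned to the strand opposite to its neighbour.

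The lanes held 29536 and 29986 nuclei (saline) and 25983 and 23450 nuclei (risperidone), which carried 119736937 and 147909049 UMIs (saline) and 168537139 and 203675013 UMIs (risperidone). After removal of nuclei under 500 genes or over 5% mitochondrial UMIs, the median depth was 3297 and 4050 UMIs (saline) and 5690 and 7802 UMIs (risperidone). The shallowest nuclei listed had 1364 and 1630 UMIs (saline) and 500 and 500 UMIs (risperidone), so nuclei below the saline floor came from the risperidone lanes alone. Any pair of lanes shared 160 to 221 cell barcodes.

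Each of the 10 lncRNAs had 1 gene opposite it and no overlapping gene on its own strand in GENCODE vM21 (GRCm38). The bodies of 8 lay wholly inside the opposite gene. Nrg3os (chr14:38898302-38958794, plus strand) started and ended in introns of Nrg3, the gene of a neuregulin that binds the receptor Erbb4. 4930587E11Rik (chr6:102266100-102336674, plus strand) lay in the same way in Cntn3, which encodes a neuronal adhesion protein of the contactin family. 4930445B16Rik (chr2:96987018-97083561, minus strand) lay in introns of Lrrc4c, which encodes a postsynaptic ligand of netrin-G. 4930473D10Rik (chr10:114757747-114785104, plus strand) lay in Trhde, an enzyme that degrades thyrotropin-releasing hormone. Gm32250 (chr1:194989062-194995345, minus strand) lay in A330023F24Rik, itself a non-coding transcript. Gm15594 (chr6:18424684-18427885, plus strand) lay in Cttnbp2, which encodes a cortactin-binding protein of dendritic spines, and 547 of its 2215 exonic bases faced a Cttnbp2 exon.

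The remaining pair of lncRNAs extended past the end of the opposite gene. Gm20275 (chr9:59826257-59941077, minus strand) began beyond the end of Myo9a, an unconventional myosin, and ran into it over 89.4% of its body. Gm45904 (chr8:112880460-113004997, minus strand) overlapped only the last 2258 bases of Cntnap4, which encodes a contactin-associated protein of interneurons, or 1.81% of its own body. The map of gene bodies shows these positions.

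**Figure D1:**
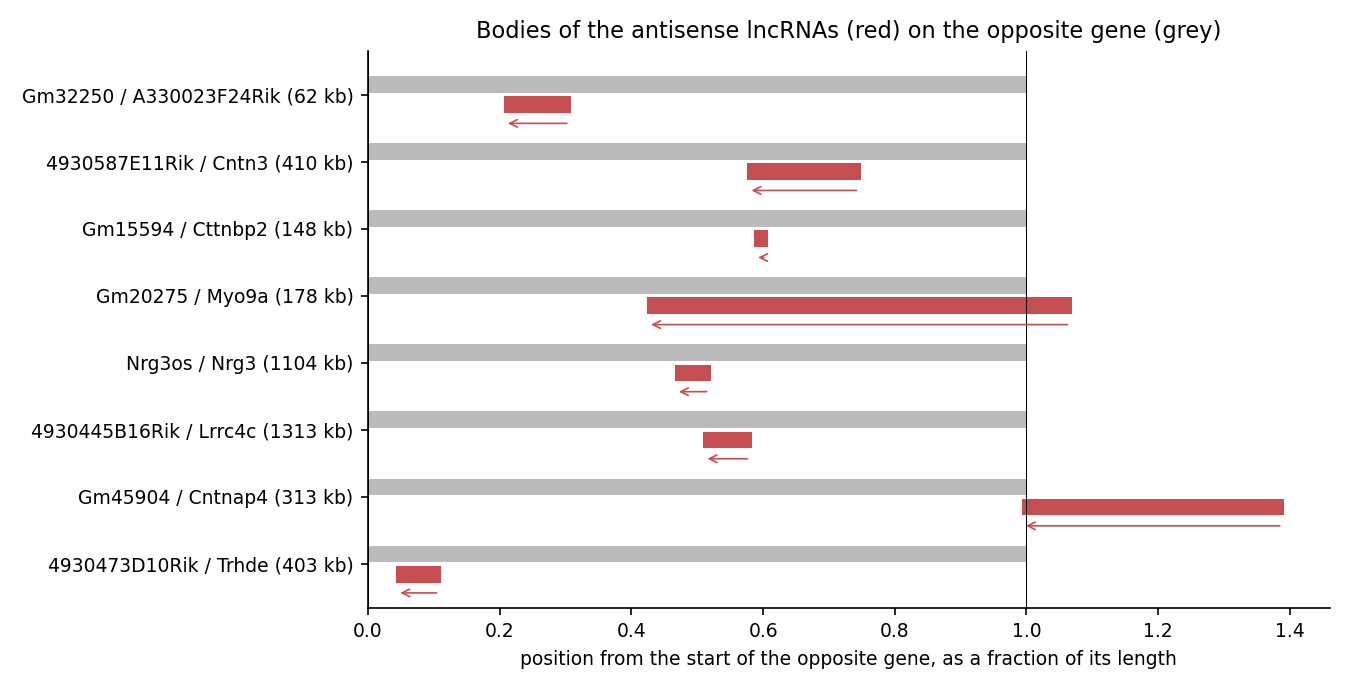
Bodies of 8 of the antisense lncRNAs (red, with an arrow in the direction of transcription) on the opposite gene (grey). The horizontal axis is the position from the start of the opposite gene as a fraction of its length, which stands in kb beside its name. Bodies of 6 lncRNAs sit inside the grey bar, Gm20275 crosses its end, and Gm45904 overlaps only its last 2258 bases.

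The last 60 bases of the longest annotated transcript are shown for 6 of the lncRNAs, because the libraries were primed on poly(A) and a polyadenylation hexamer near an annotated end is the sequence that such an end would carry. Transcript sequences were those of GENCODE vM21 on GRCm38. They are written 5′ to 3′ in lower case, with every hexamer (AATAAA or ATTAAA, searched in the last 50 bases of the transcript strand) in capitals.
Gm32250: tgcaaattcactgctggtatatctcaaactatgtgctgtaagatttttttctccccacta
4930587E11Rik: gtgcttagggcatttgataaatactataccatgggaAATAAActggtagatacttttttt
Gm15594: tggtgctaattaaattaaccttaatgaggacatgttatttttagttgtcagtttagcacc
Gm20275: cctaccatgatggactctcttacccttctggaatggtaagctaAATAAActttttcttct
Nrg3os: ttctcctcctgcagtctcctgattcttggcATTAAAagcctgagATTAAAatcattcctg
Gm45904: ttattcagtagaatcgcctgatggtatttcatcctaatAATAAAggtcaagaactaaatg
These stretches lay at chr1:194989062-194989121 (Gm32250), chr6:102336615-102336674 (4930587E11Rik), chr6:18427826-18427885 (Gm15594), chr9:59826257-59826316 (Gm20275), chr14:38958735-38958794 (Nrg3os) and chr8:112880460-112880519 (Gm45904). A hexamer was found in 7 of the 10 lncRNAs, and in 44.9% of the 3473 opposite-strand lncRNAs. Gm32250, Gm15594 and 4930473D10Rik had none in this window. A run of 10 or more A, at which an oligo(dT) primer can also anneal inside a transcript, was present in the longest transcript of Gm15594 alone among the 10, against 8.58% of the opposite-strand lncRNAs. The longest such run of Gm15594 had 16 A, in capitals here with 12 bases on each side.
Gm15594: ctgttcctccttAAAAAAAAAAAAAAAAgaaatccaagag
In the spliced transcripts of the other 9 lncRNAs the longest run of A was 3 to 6 bases. Introns, which hold most of the bases of these bodies, were not searched.

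In all nuclei, the antisense lncRNAs stood several-fold higher in both risperidone lanes than in both saline lanes, while the genes opposite them differed little. Levels are UMIs per 1000000 UMIs (CPM) scaled by trimmed mean of M-values (TMM) factors, and intervals cover counting error only, not differences between mice or pools. Nrg3os was at 16.1 and 15.8 CPM with saline and at 126 and 114 CPM with risperidone. The groups did not overlap, and the risperidone pool was 7.50-fold higher, a log2 ratio of 2.91 (95% interval 2.86 to 2.95). Nrg3 was at 6812 and 7058 CPM with saline and 6989 and 7172 CPM with risperidone, and here the groups overlapped, with a log2 ratio of 0.03.

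Gm32250 had 1.69 and 1.75 CPM with saline and 23.1 and 20.2 CPM with risperidone. Its log2 ratio of 3.64 (3.50 to 3.78) was the highest of the 10, whereas A330023F24Rik opposite it had a log2 ratio of -0.14. Gm15594 was at 3.27 and 3.18 CPM with saline and at 34.9 and 33.2 CPM with risperidone. Its log2 ratio was 3.40 (3.30 to 3.50), and that of Cttnbp2 was -0.00 (-0.02 to 0.01), an interval that includes 0.

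4930587E11Rik was at 2.12 and 2.30 CPM with saline and at 23.5 and 20.2 CPM with risperidone, a log2 ratio of 3.29 (3.17 to 3.42). Gm20275 was at 2.77 and 2.94 CPM with saline and at 26.3 and 22.5 CPM with risperidone, a log2 ratio of 3.08 (2.97 to 3.19). Cntn3 and Myo9a, opposite these lncRNAs, were themselves higher in both risperidone lanes, but by log2 ratios of 0.24 and 0.22. As folds, the lncRNAs were 9.79-fold and 8.45-fold higher and the opposite genes 1.18-fold and 1.16-fold.

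The other lncRNAs had a mean under 10 CPM. 4933413L06Rik was at 1.02 and 0.985 CPM with saline and 8.31 and 8.02 CPM with risperidone (log2 ratio 3.03). 4930473D10Rik was at 0.535 and 0.595 CPM with saline and 5.03 and 4.28 CPM with risperidone (3.02), opposite Trhde at 0.22. 4930567K20Rik was at 1.10 and 0.744 CPM with saline and 6.28 and 5.63 CPM with risperidone (2.71). For these 3 lncRNAs, chosen on this contrast, the lowest risperidone lane stood above the highest saline lane. This was so for 38.7% of the 7518 genes at 10 CPM or more. The share among genes under that level was not computed. 4930445B16Rik was at 1.80 and 1.39 CPM with saline and 9.79 and 8.07 CPM with risperidone (2.49), opposite Lrrc4c at -0.04. Gm45904, the lncRNA with the least overlap, had the lowest log2 ratio of the 10. It was at 1.70 and 1.72 CPM with saline and 4.27 and 4.38 CPM with risperidone, a log2 ratio of 1.34 (1.19 to 1.49), while Cntnap4 was at -0.20.

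A gene was called higher when its mean over the lanes was at least 10 CPM, its log2 ratio was at least 0.5 and both risperidone lanes stood above both saline lanes. Of the 10 lncRNAs, 5 reached the minimum and all 5 were called higher, beside 3.03% of the 7518 genes that reached it. These 5 (Gm32250, 4930587E11Rik, Gm15594, Gm20275 and Nrg3os) were chosen on this contrast, and 4 of them reached 10 CPM only through the risperidone lanes. In the saline lanes alone 1 of the 10, Nrg3os, had a mean of at least 10 CPM. Both risperidone lanes stood above both saline lanes for 10 of the 10, of which only 5 reached the minimum, beside 38.7% of the genes that reached it. The median log2 ratio of the 10 was 3.03, that of the opposite genes was 0.00 with a range of -0.20 to 0.24, and that of all genes tested was -0.05. None of the 10 opposite genes was called in either direction. The first antisense lncRNA outside the list, 5330438D12Rik opposite Cnot2, a subunit of the CCR4-NOT complex, was at 5.66 and 5.29 CPM with saline and 40.4 and 35.8 CPM with risperidone, a log2 ratio of 2.79, against the 1.34 of Gm45904 inside the list.

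**Figure D2:**
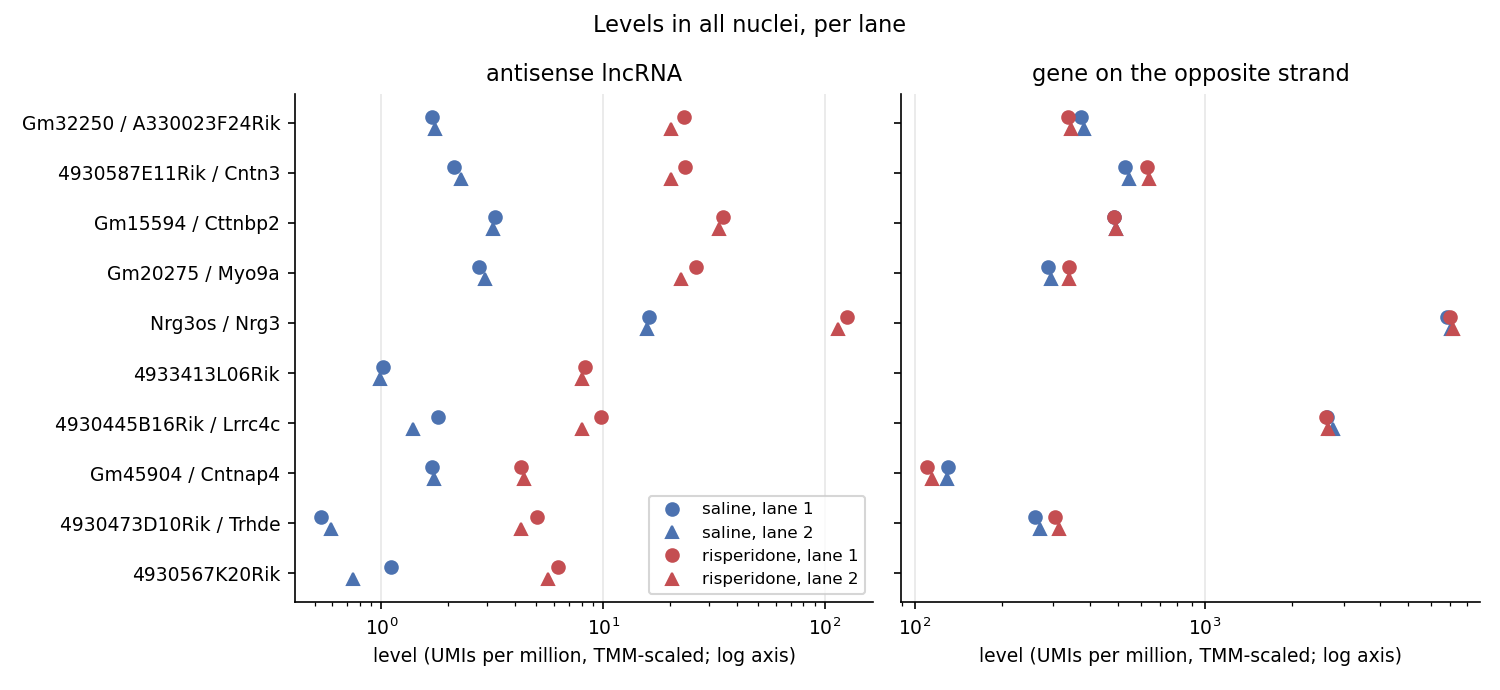
Levels of the 10 antisense lncRNAs (left) and of 8 of the genes opposite them (right) in all nuclei, in TMM-scaled CPM on log axes. Each point is a lane, with saline in blue, risperidone in red, circles for lane 1 and triangles for lane 2. In each lncRNA both red points lie above both blue points, by log2 ratios of 1.34 to 3.64, whereas the opposite genes drawn lie within -0.20 to 0.24.

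Set against the opposite gene, the counts of the lncRNAs need no scaling between lanes. Summed over the 10 pairs, there were 2.58 and 2.43 antisense UMIs per 1000 UMIs of the opposite genes with saline and 21.0 and 18.5 with risperidone, a log2 ratio of 2.97. Nrg3os had 2.37 and 2.24 UMIs per 1000 Nrg3 UMIs with saline and 18.0 and 15.9 with risperidone. Gm15594 had 6.73 and 6.44 UMIs per 1000 Cttnbp2 UMIs with saline and 72.1 and 67.4 with risperidone. The lanes of a pool differed far less than the pools, but they are technical repeats, and the lncRNAs were chosen on the difference between the pools. Within the risperidone pool, however, lane 1 was above lane 2 in 10 of the 10 pairs, by 1.01-fold to 1.24-fold, and the interval of this ratio lay above 1 in 8. Within the saline pool lane 1 was above lane 2 in 5 of the 10, and the interval lay above 1 in 2 of them. Nuclei of risperidone lane 1 were also shallower than those of lane 2, and the part of depth in this difference was not tested.

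Classes of nuclei were then set by the UMIs of marker genes, and a class was used where it held at least 50 nuclei in every lane. Glutamatergic-like nuclei were the most numerous, at 13198 to 17525 per lane. PV-like, Sst-like and Lamp5-like interneurons had 277 to 639 nuclei per lane, astrocyte-like, oligodendrocyte-like and oligodendrocyte precursor (OPC)-like nuclei 294 to 976, and endothelial-like nuclei 57 to 165. Vip-like and microglia-like nuclei fell to 43 and 44 in 1 lane and were not used. Depth differed between the pools within classes. Endothelial-like nuclei had medians of 1995 and 2842 UMIs with saline and 912.5 and 1547 UMIs with risperidone.

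Most of the lncRNAs stood higher in the risperidone pool in each of the 8 classes. Every other class also held RNA of the 6 glutamatergic markers, which summed to 3286 to 3476 CPM in glutamatergic-like nuclei. The sum was 529 to 576 CPM with risperidone and 576 to 599 CPM with saline in PV-like nuclei, and 1122 to 1148 CPM over both conditions in endothelial-like nuclei. It was lower with risperidone than with saline in Sst-like nuclei (498 to 549 against 564 to 594 CPM) and in Lamp5-like nuclei (700 to 767 against 814 to 859 CPM). The same held in OPC-like nuclei (735 to 835 against 956 to 1025 CPM) and in oligodendrocyte-like nuclei (728 to 763 against 1006 to 1015 CPM). In astrocyte-like nuclei it was 377 to 422 against 738 to 757 CPM. The part of this RNA in the levels of the lncRNAs and of the opposite genes in these classes was not tested. In glutamatergic-like nuclei, Nrg3os was at 17.2 and 16.4 CPM with saline and 135 and 124 CPM with risperidone (log2 ratio 2.94), Gm15594 at 3.34 and 3.21 against 36.6 and 34.3 CPM (3.43), and Gm32250 at 1.54 and 1.82 against 24.3 and 21.7 CPM (3.76). The lncRNAs that reached 10 CPM in this class were 5 of the 10, and all 5 were called higher, beside 4.28% of genes. Of these 5, only Nrg3os had 10 CPM in the saline lanes. The opposite genes had a median log2 ratio of 0.01 and none was called, although Cntnap4 came near the limit at -0.43.

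In PV-like nuclei 7 lncRNAs reached 10 CPM and 7 were called higher, beside 6.29% of genes, but 6 of the 7 reached it only through the risperidone lanes. The additional ones were 4933413L06Rik, 4930445B16Rik and Gm45904, while 4930587E11Rik did not reach the minimum. 4933413L06Rik stood at 1.88 and 1.36 CPM with saline and 26.7 and 20.4 CPM with risperidone there (8 against 221 UMIs). Gm45904 stood at 2.82 and 3.74 CPM with saline and 28.6 and 27.7 CPM with risperidone (17 against 269 UMIs), in the class in which Cntnap4 was highest. Cntnap4 is 1 of the markers that set the PV-like class, so its own height there follows from the choice of nuclei.

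In Sst-like nuclei 6 of 6 lncRNAs that reached the minimum were called higher (6.69% of genes), and in Lamp5-like nuclei 4 of 4 (8.64%). Here 5 of the 6 and 3 of the 4 reached it only through the risperidone lanes. 4930567K20Rik had 5 UMIs with saline and 101 with risperidone in Sst-like nuclei. In OPC-like nuclei 4 of 4 were called higher (9.76%), among them 4930445B16Rik with 7 against 36 UMIs, opposite Lrrc4c, which was highest in this class. In oligodendrocyte-like nuclei 3 of 3 were called (11% of genes), in endothelial-like nuclei 4 of 4 (16.7%), and in astrocyte-like nuclei 1 of 1 (8.55%), which was Gm20275 with 8 against 77 UMIs. The 4 in endothelial-like nuclei had few saline UMIs, 2 for Gm32250, 1 each for Gm20275 and Nrg3os, and 0 for Gm15594. None of the lncRNAs had 10 CPM in the saline lanes in the non-neuronal classes.

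Over the 80 combinations of 10 lncRNAs and 8 classes, 34 reached the minimum and 34 were called higher. Of the 34, 30 reached it only through the risperidone lanes, so the minimum itself fixed their direction, and the remaining 4 are all Nrg3os. The log2 ratio was above 0 in 78, including 13 combinations with no UMI in the saline pool, and its counting interval lay above 0 in 63. Over all genes with a UMI in these classes, 53.8% of the combinations were above 0 and 11.4% had an interval above 0. The 2 exceptions rested on few UMIs. Gm45904 had 9 UMIs with saline and 3 with risperidone in oligodendrocyte-like nuclei (log2 ratio -1.75, interval -4.27 to 0.25), and 4930473D10Rik had 3 and 0 in astrocyte-like nuclei, at which depth a difference was not detectable.

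Over the same 80 combinations, the opposite genes were called lower in 13 and higher in 2, beside 9.86% and 9.19% of all genes tested in the 8 classes. Of the 13, 3 were in OPC-like and 2 in oligodendrocyte-like nuclei. Those called higher were Cntnap4 (log2 ratio 0.82) and Trhde (0.61) in endothelial-like nuclei, where 7 of the 10 opposite genes had a log2 ratio above 0, beside 55.8% of the genes tested there. The share of all genes called higher in this class was 16.7%. In astrocyte-like nuclei, 7 of the 10 opposite genes were called lower in the risperidone pool, beside 13.7% of genes. The median depth of these astrocyte-like nuclei was 2037 and 2407 UMIs with saline and 1651.5 and 2265 UMIs with risperidone, and the part of depth was not tested. Nrg3 had 8456 UMIs with saline and 4256 with risperidone there, a log2 ratio of -1.09 (-1.14 to -1.03), whereas Nrg3os went from 13 to 50 UMIs, a log2 ratio of 1.85 (0.95 to 2.85). The summed level of the 6 glutamatergic markers in astrocyte-like nuclei moved in the same direction as the opposite genes, from 757 and 738 CPM with saline to 377 and 422 CPM with risperidone, with no marker at 0. The class rule limited this sum too, and the part of the markers in the result was not tested.

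Summed over the 10 pairs, the antisense UMIs per UMI of the opposite gene differed less between classes of a condition than between the conditions. This ratio was between 1.68 and 2.75 antisense UMIs per 1000 opposite-gene UMIs in the 8 classes with saline and between 12.4 and 24.2 with risperidone. The ranges did not overlap, but the lncRNAs were chosen on the contrast between the pools, so the gap restates that choice. The classes share the same lanes and are not replicates, and the ratio was not computed over all opposite-strand pairs. The saline value of 1.68 was that of endothelial-like nuclei, where few antisense UMIs were counted. With risperidone, Nrg3os was at 133 CPM in glutamatergic-like nuclei and at 12.2 CPM in astrocyte-like nuclei, and Nrg3 at 7901 and 1038 CPM, as means of the lanes without TMM factors, while the ratio was 16.8 per 1000 Nrg3 UMIs in the former and 11.7 in the latter. In PV-like, Sst-like, Lamp5-like, OPC-like, oligodendrocyte-like and endothelial-like nuclei the ratio was 15.2, 15.9, 15.9, 16.2, 17.2 and 19.9. With saline it was 2.28 in glutamatergic-like nuclei and 0.678 to 2.52 over the 8 classes, where 0.678 rests on 1 Nrg3os UMI in endothelial-like nuclei. Gm15594 had 66.8 to 80.5 UMIs per 1000 Cttnbp2 UMIs in the 8 classes with risperidone and 0 to 12.2 with saline, the value of 0 being that of endothelial-like nuclei, where no Gm15594 UMI was counted.

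Single lncRNAs varied more across classes, and the sum rests mostly on the pairs with the most UMIs. The saline and risperidone ranges over the 8 classes overlapped for 4930473D10Rik (0 to 8.57 and 0 to 16.7 per 1000) and for Gm45904 (0 to 52.9 and 21.4 to 45.2). 4933413L06Rik ranged from 0 to 7.09 and from 7.56 to 19.3, and Gm32250 from 2.34 to 16.1 and from 46.3 to 80.2. For Gm45904 the classes with more UMIs differed too. With saline it had 15.6 UMIs per 1000 Cntnap4 UMIs in glutamatergic-like nuclei and 3.43 in PV-like nuclei, and with risperidone 45.2 and 28.3. The log2 ratio between the conditions was accordingly 1.54 per Cntnap4 UMI in glutamatergic-like and 3.05 in PV-like nuclei. Cntnap4 is a marker that set the PV-like class, so the choice of nuclei acts on the divisor of this ratio there. The PV-like saline value rests on 17 Gm45904 UMIs. The plot of antisense UMIs by cell class shows the summed ratio with those of Nrg3os and Gm15594.

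**Figure D3:**
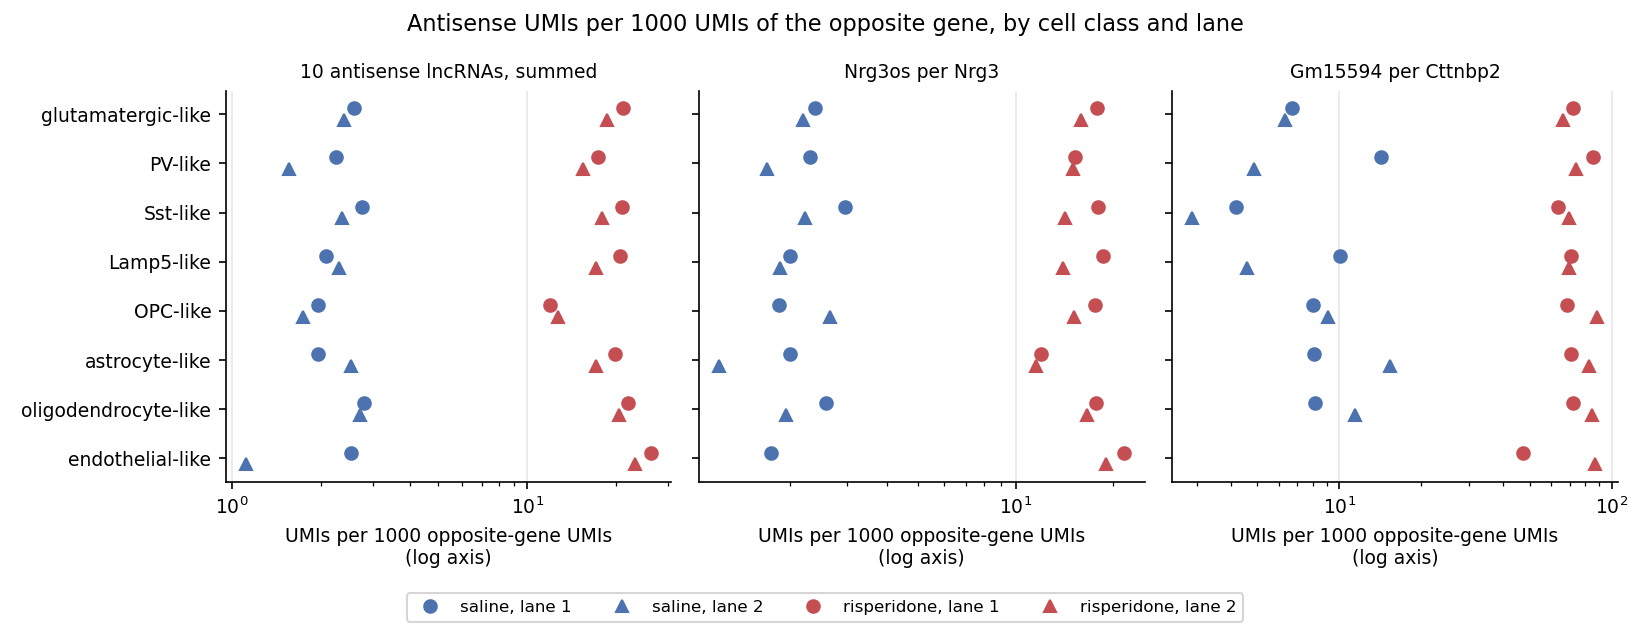
Antisense UMIs per 1000 UMIs of the opposite gene in 8 classes of nuclei, on log axes, for the 10 lncRNAs summed (left), Nrg3os per Nrg3 (middle) and Gm15594 per Cttnbp2 (right). Each point is a lane, with saline in blue and risperidone in red, and lanes with no UMI of the lncRNA are not drawn. In every class the risperidone lanes stand above the saline lanes. The summed ratio of the risperidone lanes drawn runs from 11.9 (OPC-like, lane 1) to 26.2 (endothelial-like, lane 1), and from 12.4 to 24.2 with the lanes of the pool added up.

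Across the classes, the level of each lncRNA was set beside that of all genes that reached a mean of 10 CPM in at least 1 class, by Pearson's r of log2(CPM + 1) over 16 points (8 classes in each condition, centred within the condition). The points share libraries and depth, so r is a description. Nrg3os was most like Arfgef3 (r = 0.96) and Syt14 (0.96), and Nrg3 ranked 5 of 10581 genes (0.95). Trhde ranked 2 for 4930473D10Rik (0.83), Cntnap4 3 for Gm45904 (0.81) and Lrrc4c 3 for 4930445B16Rik (0.83). Cntn3 ranked 14 for 4930587E11Rik (0.87). For 7 of the 10 lncRNAs the opposite gene was among the 20 most alike. It was not for Gm15594 (Cttnbp2 ranked 218, r = 0.60), Gm32250 (A330023F24Rik 507, 0.62) and Gm20275 (Myo9a 2362, 0.33).

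The first-ranked genes of the others were Pik3cd for Gm32250 (0.89, then Cyb561), Cep126 for 4930587E11Rik (0.92, then Vps13b), Adam32 for Gm15594 (0.87, then Porcn) and Fxyd5 for Gm20275 (0.81, then Ece1). Rusc1 came first for 4933413L06Rik (0.89, then Atp6v0a1), AU041133 for 4930445B16Rik (0.86, then Xylt2) and Nat8l for Gm45904 (0.82, then Plcxd3). Gm43154 came first for 4930567K20Rik (0.92, then Adamts18).

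The lncRNAs were also read in single nuclei at equal depth. Glutamatergic-like nuclei with at least 3000 UMIs were thinned to 3000 UMIs each, which left out 6817 and 4674 saline and 843 and 368 risperidone nuclei. At least 1 Nrg3os UMI was present in 4.90% and 4.62% of the saline nuclei and in 34.4% and 31.7% of the risperidone nuclei. The exact binomial 95% interval was 4.49 to 5.33% for saline lane 1, and 33.7 to 35.2% and 30.9 to 32.5% for the risperidone lanes. Without thinning the shares were 6.72%, 7.54%, 57.1% and 62.9%, at median depths of 3577, 4405, 6220 and 8508.5 UMIs. In astrocyte-like nuclei, in which Nrg3 was low, the thinned shares were 1% and 0.461% with saline and 9.80% and 6.25% with risperidone. They rest on 1, 1, 5 and 11 nuclei with a UMI, from 51 to 217 nuclei per lane. The floor left out most astrocyte-like nuclei, 663 and 672 with saline and 925 and 760 with risperidone. Without thinning the shares were 0.917%, 0.675%, 1.95% and 2.46%, at median depths of 2037, 2407, 1651.5 and 2265 UMIs. The thinned nuclei are thus a deep subset of this class. Gm15594 was present in 0.786% and 0.801% of the thinned saline glutamatergic-like nuclei and in 10.7% and 10.1% of the risperidone ones.

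In the risperidone lanes, nuclei with more Nrg3 UMIs had more Nrg3os UMIs, but less than in proportion. When the thinned glutamatergic-like nuclei of risperidone lane 1 were divided into quartile groups by their Nrg3 UMIs, these went from 15.6 to 32.9 per nucleus from the lowest to the highest quartile group, and Nrg3os from 380 (95% Poisson interval 360 to 401) to 497 (474 to 521) UMIs per 1000 nuclei. In risperidone lane 2 the corresponding Nrg3os values were 354 and 451. In saline lane 1 they were 44.3 (36.7 to 53.1) and 53.4 (45.0 to 63.0), intervals that overlap, and in saline lane 2 they were 41.4 (34.7 to 49.1) and 58.2 (50.2 to 67.2), with a lower value of 38.9 in the second quartile group. The highest saline quartile groups held 30.3 and 30.5 Nrg3 UMIs per nucleus and the lowest risperidone quartile groups 15.6 and 15.9. Nrg3os was chosen as higher in the risperidone pool, so the order of the pools in these groups restates that choice. The part of the Nrg3 level in it was not tested. The quartile groups were set on the same Nrg3 UMIs, whose own sampling error widens their range.

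The lncRNAs were also read at several depths. They were chosen on the contrast between the pools, so the order of the pools at each depth is a description. Glutamatergic-like nuclei of each lane were divided into quartile groups by their total UMIs. The 10 lncRNAs together stood at 29.4 to 33.6 and 28.6 to 32.1 CPM in the quartile groups of the saline lanes, and at 277 to 310 and 244 to 283 CPM in those of the risperidone lanes. At similar depth, the second quartile group of saline lane 2 (median 3600 UMIs) had 2.28 antisense UMIs per 1000 opposite-gene UMIs (95% Poisson interval 2.08 to 2.50), and the first quartile group of risperidone lane 1 (median 3742 UMIs) had 21.2 (20.6 to 21.9). Within the risperidone lanes the ratio was lower in the deepest than in the shallowest quartile group, at 20.6 against 21.2 in lane 1 and 18.0 against 19.3 in lane 2, and only in lane 2 were these intervals apart (17.6 to 18.3 against 18.8 to 19.9).

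**Figure D4:**
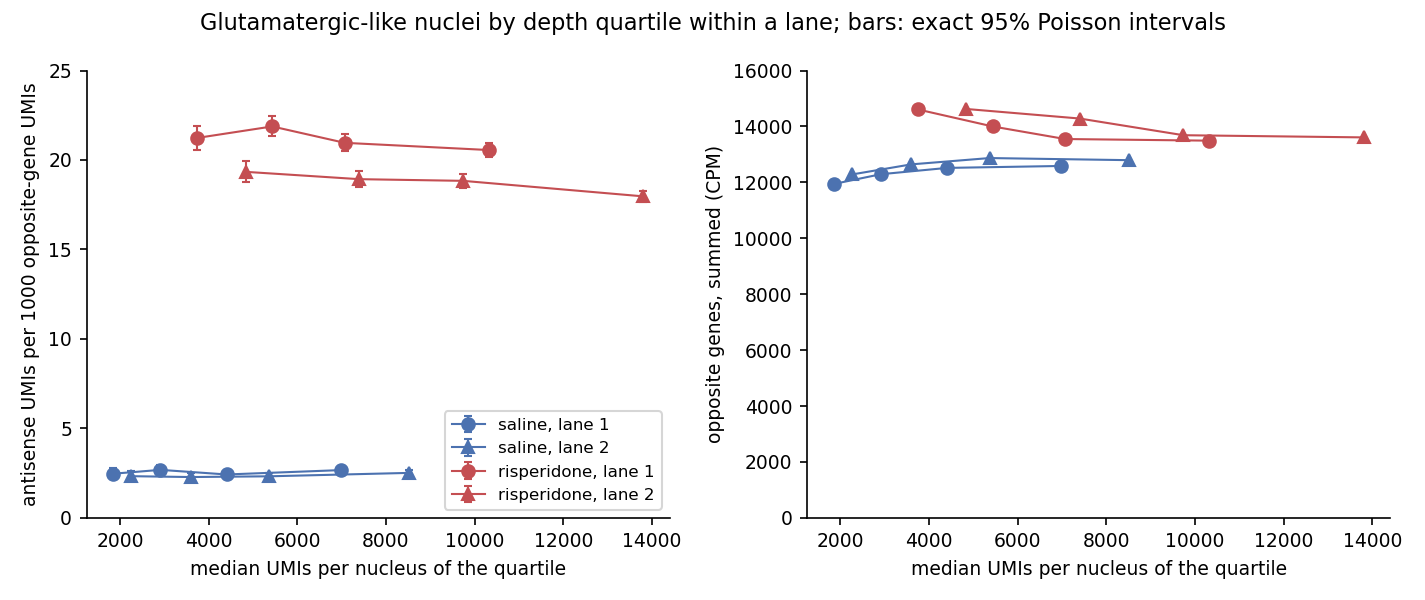
Left, antisense UMIs of the 10 lncRNAs per 1000 UMIs of the opposite genes in quartile groups of glutamatergic-like nuclei by depth, against the median UMIs per nucleus of the quartile group, with exact 95% Poisson intervals. Right, the summed level of the opposite genes in CPM. Saline lanes (blue) lie between 2.28 and 2.68 and risperidone lanes (red) between 18.0 and 21.9, including where their depths meet.

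Other lncRNAs with a gene opposite them were compared next, in a family set by annotation and total UMIs and not by direction. Of the 3473 opposite-strand lncRNAs, 115 reached 10 CPM in all nuclei, and 53 (46.1%) were called higher and 5 lower in the risperidone pool, beside 3.03% and 7.86% of all genes tested. Without the 10 members, 48 of 110 (43.6%) were called higher. The median log2 ratio of the 115 was 0.36, or 0.30 without the members. With a lane left out the lncRNAs that reached the minimum changed. The median was then 0.10 without risperidone lane 1, 0.18 without risperidone lane 2, and 0.56 and 0.58 without a saline lane. Where at least 50% of the body was overlapped, 46 of 63 (73.0%) were called higher, with a median of 1.62, members included. With 10 CPM required in the saline lanes alone it was 7 of 22 (31.8%), Nrg3os included, with a median of -0.02. The lncRNAs with no gene opposite had 7 of 156 (4.49%) called higher, 25 lower and a median of -0.17. Protein-coding genes with a stronger gene opposite had 42 of 363 (11.6%) called higher, and those with no gene opposite 2.00% of 4351.

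The lncRNAs were then grouped by how much stronger the opposite gene was. Where the opposite gene had under 3 times the UMIs of the lncRNA, 0 of 26 were called higher, with a median of -0.16. From 3 to 10 times, 15 of 36 were called higher (median 0.27), and from 10 to 30 times 11 of 21 (0.68). At 30 times or more, 27 of 32 (84.4%) were called higher, with a median of 1.74. The 5 members that reached the minimum were chosen as higher and are counted in these groups. Gm32250, Gm15594 and Gm20275 fell at 10 to 30 times, and 4930587E11Rik and Nrg3os at 30 times or more. Shares of the groups without them were not computed. The shares by group also depend on the minimum level, because many opposite-strand lncRNAs passed it through the risperidone lanes, in which they were high. When the 10 CPM were required in the saline lanes alone, 72 opposite-strand lncRNAs remained, 11 (15.3%) were called higher, beside 1.86% of all genes and 3.16% of lncRNAs with no gene opposite, and the median was -0.12. Without the members 10 of 71 (14.1%) were called higher. In the 4 groups by strength of the opposite gene, the calls under this minimum were 0 of 27, 3 of 23, 4 of 13 and 4 of 9, with medians of -0.19, -0.16, 0.03 and 0.41. Nrg3os, a member, is counted in the 4 of 9. With no minimum, 1729 of 3344 (51.7%) were called higher with a median of 0.73, beside 16.9% of all genes and 16.7% of the lncRNAs with no gene opposite, whose median was -0.09.

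**Figure D5:**
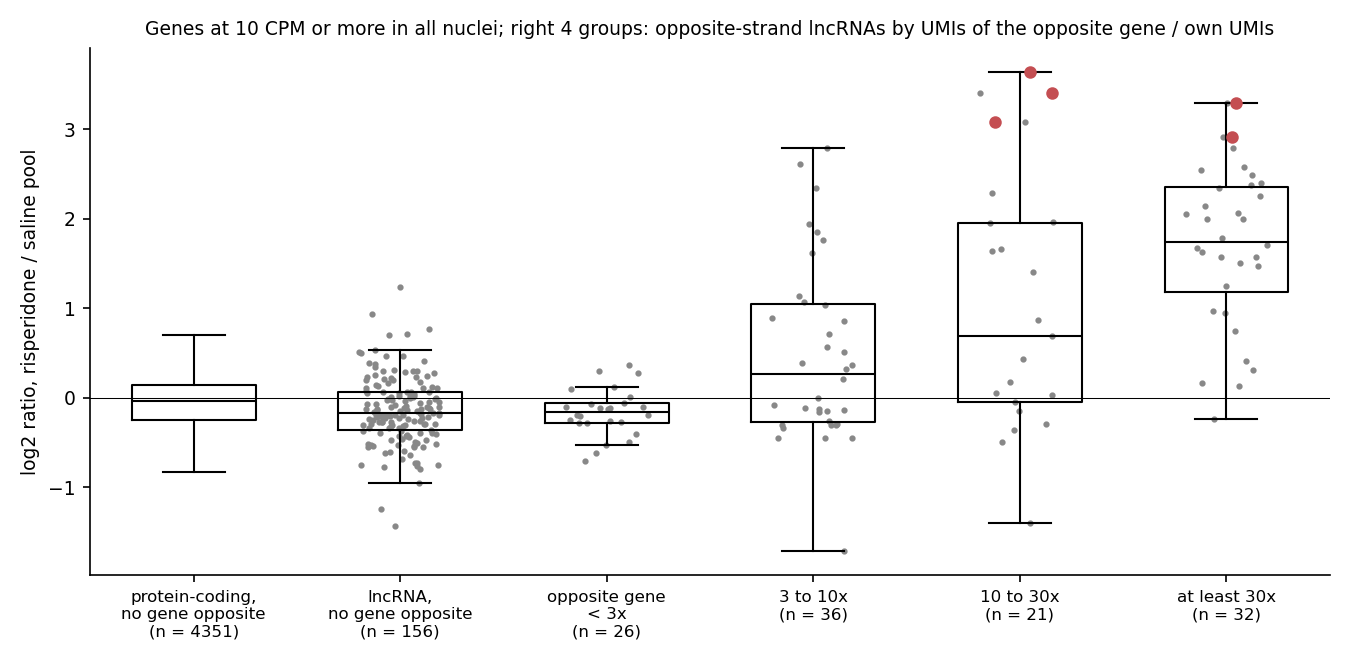
Log2 ratio of the risperidone to the saline pool for genes at a mean of 10 CPM or more in all nuclei. Boxes give the median and quartiles, whiskers reach to the farthest value within 1.5 times the box, grey points are genes (not drawn for protein-coding genes) and red points are the 5 members that reached the minimum. From left to right, the medians are -0.04 and -0.17 for genes with none opposite, and -0.16, 0.27, 0.68 and 1.74 for opposite-strand lncRNAs with increasingly strong opposite genes.

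Of the 5 opposite-strand lncRNAs with the most UMIs outside the list, 4 are reported here. All 4 had a level below that of saline in the risperidone pool, where 42.9% of all genes tested had a log2 ratio above 0. AY036118 had a log2 ratio of -1.39 (Gm42418 opposite it -2.27), Zmiz1os1 of -0.53 (Zmiz1 -0.56), 2210408F21Rik of -0.30 (Lncpint -0.16) and Jpx of -0.28 (Ftx 0.14). The ratio of AY036118 was thus less negative than that of the gene opposite it, and that of Zmiz1os1 was close to that of Zmiz1. Jpx is known as an activator of Xist. Reads of AY036118 and Gm42418 overlap a ribosomal RNA repeat, so their assignment is uncertain. As a share of all UMIs, the opposite-strand lncRNAs took 0.444% and 0.432% with saline and 0.715% and 0.668% with risperidone. LncRNAs with no gene opposite also took a larger share with risperidone, 5.36% and 5.19% against 4.34% and 4.35%, although few of their genes were called higher.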

How the data were processed

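Per the labels and the study's methods, the authors aligned reads with Cell Ranger 8.0.1 (submitters' processing notes, build mm10, GENCODE vM23), counted intronic reads by default, and deposited the filtered raw UMI counts of 4 lanes. Positions came from GENCODE vM21 on GRCm38, and 32235 of 32285 gene IDs matched. Lanes of a pool were summed. Log2 ratios used TMM factors (edgeR 4.0.16), and the calls are size rules, not tests. Intervals are 95% exact conditional, Poisson or binomial intervals, and cover counting error only. The fold calculation was tested on simulated counts.

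Members and lists were chosen with earlier results of these data known. Class markers were listed beforehand and the marker thresholds were set after the nuclei were seen: at least 3 marker UMIs and 2 distinct markers for interneurons, with a Gad1, Gad2 or Slc32a1 UMI, and 4 UMIs and 3 markers for glia and endothelium. Nuclei that met 2 classes were treated as doublet-like and left out of classes; no doublet caller was run. Names are rebuilt and may differ from the study's. The rule for named genes took the members, their opposite genes, 5330438D12Rik, the 2 genes most like each member across classes, and the 5 opposite-strand lncRNAs with the most UMIs outside the list; values of some of these genes are not reported here. Sequence features came from GENCODE transcripts, so introns were not searched. Alternatives were other scalings (CPM; DESeq2 1.42.0 size factors), minimum levels, a floor of 3000 UMIs, removal of doublet-like nuclei or shared barcodes, and each lane left out. These were run for all nuclei and glutamatergic-like nuclei only, so contrasts in the other classes have no alternative.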

Additional observations from a re-analysis of the deposited data

Results flagged for a closer look

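Cntnap4, opposite Gm45904, was called higher in the risperidone pool in endothelial-like nuclei (log2 ratio 0.82) and lower in astrocyte-like nuclei (-1.56). Trhde, opposite 4930473D10Rik, was called higher in endothelial-like nuclei (0.61) and lower in OPC-like nuclei (-1.05). They stand here because both lanes moved one way in one class and the opposite way in another. The difference between the classes was not tested. The summed glutamatergic markers were at 956 and 1025 CPM with saline and 735 and 835 CPM with risperidone in OPC-like nuclei, and at 757 and 738 against 377 and 422 CPM in astrocyte-like nuclei. In endothelial-like nuclei the 7 oligodendrocyte markers summed to 1104 and 1071 CPM with saline and 399 and 581 CPM with risperidone, and none of them was at 0. Their part in these values was not tested, and endothelial-like nuclei numbered only 57 to 165 per lane.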

How the results depend on the processing

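No paired analysis was possible because the results come from no test, with 1 pool per condition and lanes that share only a number. Each of the 10 lncRNAs kept a log2 ratio above 0 in all nuclei under every alternative run, in 90 of 90 values from 1.31 to 3.75. The lncRNAs were chosen as higher in these same lanes, so this sign restates the choice and the 90 values are not independent. Of the 90, 84 moved by less than the spread between lane pairs. With plain CPM, which shifted the log2 ratio of all genes by 0.11, the median of the lncRNAs was 3.14, that of the opposite genes 0.12 and that of the opposite-strand lncRNAs 0.48. With no minimum of CPM, 10 lncRNAs were called higher in all nuclei and 10 in glutamatergic-like nuclei, and the opposite-strand median was 0.73. With a minimum of 50 CPM these counts were 1 and 1, the opposite-strand median turned to -0.29 and 12.5% of 8 were called higher. With the minimum of 10 CPM on the saline lanes alone, an alternative chosen after the data were seen, the counts were 1 and 1, the median turned to -0.12 and the share was 15.3%. In both cases fewer lncRNAs entered. Nuclei with at least 3000 UMIs gave an opposite-strand median of 0.40, lncRNAs overlapped over at least 50% gave 1.62 and 73.0%, and leaving out the 10 members (also chosen after the data were seen) gave 0.30. Leaving out 1 lane gave 2 to 5 members called in all nuclei and 2 to 5 in glutamatergic-like nuclei, because the mean over the lanes falls below the minimum without a risperidone lane: 2 and 2 without risperidone lane 1. The opposite-strand median ran from 0.10 without risperidone lane 1 and 0.18 without lane 2 to 0.56 and 0.58 without a saline lane. The minimum is set on the mean of the lanes kept, so the lncRNAs that entered changed with the lane left out. For the lncRNAs of the main run, the standard deviation of this median between lane pairs was 0.03. DESeq2 size factors and removal of doublet-like nuclei or of shared barcodes moved none of the summary values computed under them beyond the spread, and with stricter markers, run for glutamatergic-like nuclei only, 5 members were called higher there. Levels under about 1 CPM in the smaller classes rest on 0 to 10 UMIs. In endothelial-like nuclei higher levels do so too, where 1 UMI was 6.05 CPM in saline lane 1 and 4.71 CPM in saline lane 2.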
